A study of Mus musculus with 30 samples.

Results

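The core O-glycan synthesis and branching enzymes are 6 genes, taken by name from the 14475 in the expression table. C1galt1, C1galt1c1, B3gnt6, Gcnt1, Gcnt3 and Gcnt4 were all listed in the table, and each was followed through 30 libraries of total RNA from mouse colon depleted of ribosomal RNA. Values are the authors' deposited FPKM, which counts mapped fragments per kilobase of a gene's length and per M mapped in the library. The groups were 8 mutant and 7 control libraries of the ascending colon, and 8 mutant and 7 control libraries of the descending colon, all from females.

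The mutants had the genotype C1galt1f/f;VillinCre-ERT2;C3GnT-/-, where C3GnT is B3gnt6, and carried the label TM-DKOAsc in both regions. The controls were labelled Control, and the protocol calls them WT littermates. In the breeding described, the mothers were C3GnT-/- and the fathers C3GnT+/-, so as written each pup receives a null copy from its mother, and the C3GnT genotype of each control is not stated. Mutants and littermates alike received tamoxifen at 0.5 mg, about 20 mg/kg, on each of 5 days, and the time of analysis is given only as 5 or 10 days after the last dose. Cre driven by the Villin promoter acts in the gut epithelium, whereas a piece of colon also holds other cells. The mice of cage A were 3.4 months old with the strain label C57BL/6 Background, and those of cages B and C were 2.6 and 3.2 months old and labelled as mixed BL/6 and 129SvJ. Cage, age and, for cage A, the strain label cannot be told apart. Each group had 3, 2 and 3 mutant libraries or 2, 3 and 2 control libraries from cages A, B and C. No label says that libraries came from separate animals, so p-values measure the spread between these libraries.

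Mucin-type O-glycans start with N-acetylgalactosamine on serine or threonine. C1galt1 adds galactose to it and makes core 1, and its chaperone C1galt1c1, also called Cosmc, is needed for active C1galt1. B3gnt6 competes for the same sugar and makes core 3, a core typical of the intestine. Gcnt1, Gcnt3 and Gcnt4 add the branching N-acetylglucosamine. Gcnt1 and Gcnt4 turn core 1 into core 2, and Gcnt3, typical of mucin-producing tissues, makes core 2 and also turns core 3 into core 4.

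The estimated depth was 1.43 to 7.75 M reads in ascending mutants, 3.39 to 6.46 M in ascending controls, 6.49 to 8.85 M in descending mutants and 3.14 to 8.78 M in descending controls. All 12 epithelial markers were listed, and their summed level was 5977 to 8090 FPKM in ascending mutants, 4914 to 7448 FPKM in ascending controls, 4175 to 8541 FPKM in descending mutants and 3971 to 8963 FPKM in descending controls. The lowest sums belonged to descending control A2 and descending mutant C1 (libraries are named by cage and replicate). The 6 markers of descending colon summed to 0 to 32.2 FPKM in the ascending libraries. The highest was ascending control B1, followed by ascending control C1 at 10.8 FPKM. The descending libraries had 285 to 483 FPKM other than control A2, which had 65.4 FPKM. Ascending control B1 had 431 FPKM over 8 smooth muscle markers, the highest value among the ascending libraries. It also had 1525 FPKM over 18 goblet cell markers, the lowest value of all libraries. These marker lists were chosen with results of these data known.

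The genes differ in what stands at their starts. RefSeq promoter windows (GRCm38.p6, 250 bases before to 50 bases after a start) were matched for 3 of the 6 members, C1galt1, Gcnt1 and Gcnt4. They are shown for a gene not called between the regions (C1galt1), a gene called lower in ascending colon (Gcnt1) and a gene called higher there (Gcnt4). Capitals mark GATAA, bound by GATA factors, and TTTAT, the core of sites of CDX and posterior HOX factors, read on both strands (so that ATAAA is TTTAT on the other strand); the sequences run 5′ to 3′.
C1galt1, chr6:7844974-7845273, plus strand: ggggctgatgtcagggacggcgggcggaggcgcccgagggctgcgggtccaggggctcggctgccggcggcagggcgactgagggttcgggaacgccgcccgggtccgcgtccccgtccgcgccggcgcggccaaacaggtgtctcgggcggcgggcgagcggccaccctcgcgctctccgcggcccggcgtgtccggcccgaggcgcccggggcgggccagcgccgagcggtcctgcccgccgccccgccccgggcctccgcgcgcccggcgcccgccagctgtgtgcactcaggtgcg
Gcnt1, chr19:17372795-17373094, minus strand: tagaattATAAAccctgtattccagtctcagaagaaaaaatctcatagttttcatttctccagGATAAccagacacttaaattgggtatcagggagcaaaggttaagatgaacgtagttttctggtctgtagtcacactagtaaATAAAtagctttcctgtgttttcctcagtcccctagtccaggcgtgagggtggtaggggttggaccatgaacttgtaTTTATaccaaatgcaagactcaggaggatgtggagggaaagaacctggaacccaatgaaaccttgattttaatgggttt
Gcnt4, chr13:96924463-96924762, plus strand: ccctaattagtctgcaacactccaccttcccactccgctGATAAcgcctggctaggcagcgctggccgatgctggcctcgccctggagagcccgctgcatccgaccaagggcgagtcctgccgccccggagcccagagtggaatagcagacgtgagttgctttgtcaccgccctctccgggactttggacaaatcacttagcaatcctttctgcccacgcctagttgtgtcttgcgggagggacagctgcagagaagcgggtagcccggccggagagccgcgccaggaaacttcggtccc
The C1galt1 window had a GC content of 82.7%, against a median of 52.7% over all 32851 windows, and held 52 CpG dinucleotides against a median of 7. It held neither motif. The Gcnt1 window, at 40.7% GC, held 3 copies of TTTAT and 1 of GATAA. Of these TTTAT copies, 2 lie within TATAAA, the sequence of a TATA box, which 13.6% of all windows held. The Gcnt4 window, at 62.7% GC, held 1 GATAA and no TTTAT. Over all windows 25.4% held GATAA and 40.0% held TTTAT, so these matches are common. Of the other windows, 1 of Gcnt1 held 1 TTTAT, and the third of Gcnt1 and the other one of Gcnt4 held neither motif.

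The targeted genes were examined first. C1galt1 (ENSMUSG00000042460.5; GRCm38 chromosome 6, 7844842 to 7875687, plus strand, 4 exon blocks) makes core 1 and carried the floxed alleles. Its level ran from 18.3 through a median of 28.8 to 34.3 FPKM in the 8 ascending mutants, and from 21.5 through a median of 36.3 to 45.7 FPKM in the 7 ascending controls. In the descending colon it ran from 14.6 through 30.6 to 36.7 FPKM in mutants, and from 28.0 through 33.3 to 38.7 FPKM in controls. The groups overlapped in both regions, and no mutant library was near 0. The table sums each whole gene, so these values do not read the floxed part by itself.

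On the log2(FPKM + 1) scale, which understates the change of low genes, the C1galt1 difference of mutants minus controls was -0.36 ± 0.13 (SE) in ascending colon (limma, adjusted p = 0.348) and -0.28 ± 0.16 in descending colon (adjusted p = 0.999). By cage, the ascending difference was -0.30 in cage A, -0.73 in cage B and -0.05 in cage C, and the ranges of the 2 genotypes did not overlap in cages A and B. The descending differences were -0.04, -0.35 and -0.45 in cages A, B and C, without overlap in cage C. With 2 or 3 libraries per genotype in a cage, ranges often separate without any difference. The share of all genes that did so was not counted, so nothing is read from these separations. Leaving out single libraries gave -0.43 to -0.23 in ascending colon, where -0.23 was without mutant B1, and -0.35 to -0.17 in descending colon, where -0.17 was without mutant C1. All 3 cages had lower mutant means in both regions, with sizes that varied by cage, and the genotype by cage term did not pass in either region (adjusted p = 0.545 ascending, 0.906 descending).

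B3gnt6 (ENSMUSG00000074004.3; GRCm38 chromosome 7, 98192417 to 98199481, minus strand, 2 exon blocks), the core 3 synthase, was the least abundant member. Its FPKM fell on steps of single reads in each library. Values of 10 reads or fewer lay within 0.12 of a whole read. Estimated reads are therefore given, and these are not corrected for depth. Ascending mutants A1, A2 and A3 had an estimated depth of 1.48, 1.59 and 1.43 M reads, and ascending control A2 had 6.46 M. In ascending mutant A2, 2 reads of B3gnt6 were 0.53 FPKM, whereas in ascending control A2 7 reads were 0.45 FPKM. The 8 ascending mutants held 6 reads in all, with 0 to 3 in a library and 5 libraries listed at 0. The 7 ascending controls held 267 reads, of which control B1 had about 87 and control B2 about 157. The other 5 ascending controls had 5 (A1), 7 (A2), 1 (B3), 5 (C1) and 5 (C2). High B3gnt6 was therefore seen in 2 ascending controls of cage B, at 9.52 and 19.5 FPKM, and in no other library.

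In the descending colon the 8 mutants held 1 read in all, in mutant B2, and 7 were listed at 0. The 7 descending controls held 20 reads, 8 in control B1, 9 in control B2, 2 in A2 and 1 in B3, with the other 3 listed at 0. The controls B1 and B2 thus had the highest counts in this region too, although their level of 0.38 and 0.43 FPKM was low. The mean ascending difference was -1.08 ± 0.50 on the log2 scale (limma, adjusted p = 0.420), and an exact permutation test of mutant and control labels within cages gave a two-sided p of 0.092 over 1000 arrangements. The difference was -0.40 in cage A, -2.42 in cage B and -0.43 in cage C. B3gnt6 reached the mean of 0.5 FPKM needed for any fit only through ascending controls B1 and B2. The other ascending controls ran from 0.11 to 0.60 FPKM, and ascending mutants from 0 to 0.53 FPKM. Its fitted values therefore rest on those 2 libraries, and no difference is concluded from them. In descending colon B3gnt6 stayed below that mean, and the exact permutation test gave p = 0.14.

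The genes whose pattern was most like that of B3gnt6 over the 30 libraries were Trim30d (Pearson r = 0.718, Spearman rho = 0.327), Slfn5 (0.608) and Thy1 (0.595), among 11117 genes averaging 1 FPKM or more. Trim30d, a member of the Trim30 cluster, lies on the same chromosome at 104470014 to 104507849, 6.27 Mb away. Its level was 22.6 FPKM in ascending control B1 and 7.65 FPKM in ascending control B2, and 5.54 and 7.84 FPKM in the descending controls of those numbers. Everywhere else Trim30d was at 0.17 to 2.96 FPKM, the highest being descending mutant C1. Myo7a, an unconventional myosin whose gene lies 0.0729 Mb from B3gnt6, was chosen for display after its values were seen. Its ascending values were 1.25 FPKM in control B1 and 1.97 FPKM in control B2 against 0 to 0.40 FPKM in the other libraries. Its descending values were 3.11 and 3.23 FPKM in controls B1 and B2 against 0.17 to 1.10 FPKM in the rest. In each region the controls B1 and B2 were thus the highest libraries for all 3 genes; the labels give the regions a shared number and do not say that they share an animal. Smooth muscle markers summed to 431 FPKM in ascending control B1 and 75.9 FPKM in ascending control B2. In the same 2 libraries markers of descending colon summed to 32.2 and 0.79 FPKM, and goblet cell markers to 1525 and 5855 FPKM. The part of these markers in the values of the 3 genes was not tested.

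**Figure D1:**
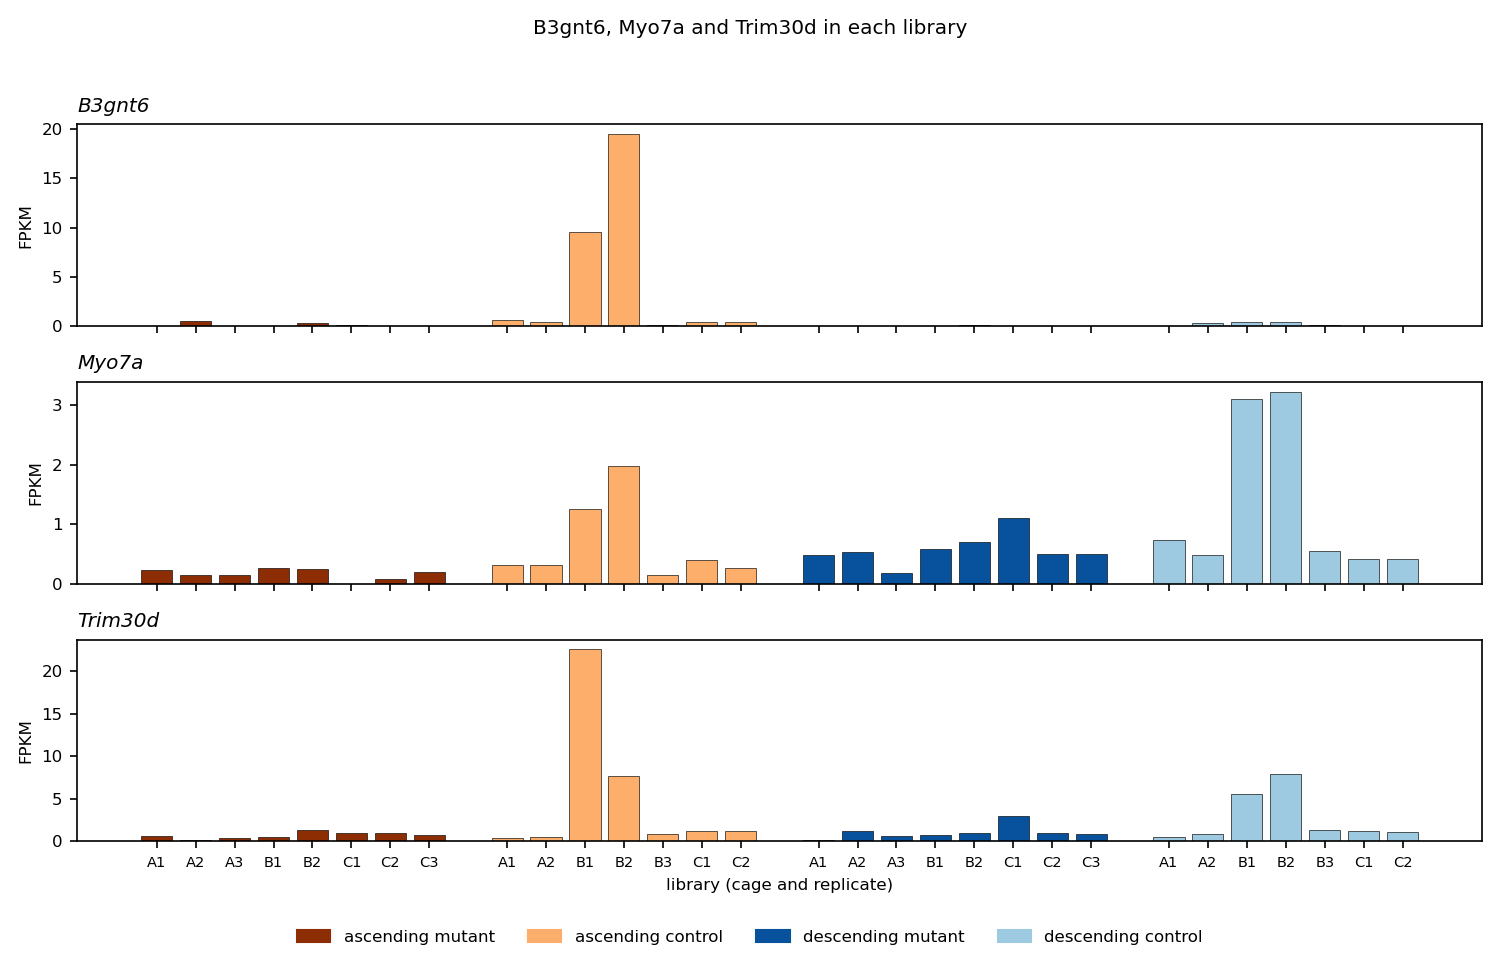
Bars give the FPKM of B3gnt6, Myo7a and Trim30d in each of the 30 libraries, named by cage and replicate and coloured by region and genotype. B3gnt6 stood at 9.52 FPKM in ascending control B1 and 19.5 FPKM in ascending control B2, and the controls B1 and B2 of both regions were high for the other 2 genes.

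C1galt1c1 (ENSMUSG00000048970.9; GRCm38 chromosome X, 38630785 to 38635087, minus strand), the chaperone of C1galt1, ran from 11.5 through a median of 29.0 to 37.3 FPKM in ascending mutants and from 11.6 through 31.9 to 39.9 FPKM in ascending controls. The descending values were 5.54, 21.2 and 38.1 FPKM in mutants and 9.89, 18.4 and 22.4 FPKM in controls, again as lowest, median and highest. The genotypes overlapped throughout. The difference was 0.10 ± 0.24 in ascending colon (limma, adjusted p = 0.893) and 0.04 ± 0.30 in descending colon (adjusted p = 0.999). The descending sign turned with several libraries, to -0.19 without descending control A2 and -0.09 without descending mutant A3, and the ascending sign turned to -0.06 without ascending control C1.

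C1galt1c1 and C1galt1 had a Pearson r of 0.65 (Spearman rho 0.52) over the 30 libraries, 0.646 (0.611) over the 15 ascending and 0.814 (0.50) over the 15 descending libraries. These points share their libraries and the cages, and the descending value includes mutant C1, the lowest library for both genes. The ratio of C1galt1c1 to C1galt1 in FPKM had a median of 1.09 in ascending mutants, 0.721 in ascending controls, 0.666 in descending mutants and 0.579 in descending controls, with ranges that overlapped between all of them. Genes most like C1galt1c1 were Pon3, a lactonase (r = 0.949), Copb2, a coat protein of Golgi vesicles (0.941), and P4hb, a protein disulfide isomerase (0.934). Those most like C1galt1 were Hspa5, the chaperone BiP of the endoplasmic reticulum (0.804), Cited4 (0.803) and Cd47 (0.783). Pon3 stayed at an r of 0.922 within the ascending and 0.97 within the descending libraries, so its likeness was not a difference between regions.

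Among the branching enzymes, Gcnt3 and Gcnt4 separated the regions. Gcnt3 (ENSMUSG00000032226.5; GRCm38 chromosome 9, 70031496 to 70038088, minus strand), the enzyme of core 2 and core 4, was the most abundant member of the ascending colon. It averaged 245 ± 36.0 FPKM in ascending mutants and 26.0 ± 4.04 FPKM in descending mutants (SD, n = 8 each), a ratio of 9.43. In controls it averaged 237 ± 44.3 FPKM in ascending colon and 26.9 ± 5.54 FPKM in descending colon (SD, n = 7 each), a ratio of 8.82. The lowest ascending library had 187 FPKM and the highest descending library 37.6 FPKM, so the regions did not overlap. For Gcnt3, and for Gcnt4 below, the share of all genes separated in this way was not counted. The log2 difference of ascending minus descending was 3.19 ± 0.12 in mutants (limma, adjusted p = 1.89e-12) and 3.10 ± 0.14 in controls (adjusted p = 1.33e-08). It lay between 2.75 and 3.28 in all cages of both genotypes.

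Gcnt4 (ENSMUSG00000091387.2; GRCm38 chromosome 13, 96924689 to 96950906, plus strand), a core 2 enzyme, showed the same direction at a lower level. It had 2.44, 4.58 and 8.34 FPKM (lowest, median, highest) in ascending mutants against 0.47, 0.58 and 0.92 FPKM in descending mutants. In controls the values were 1.18, 5.02 and 9.24 FPKM in ascending colon against 0.28, 0.63 and 1.09 FPKM in descending colon. The regions did not overlap, although the lowest ascending library, control B1, came close to the highest descending one, control A2. Control B1 had the highest ascending sum of descending colon markers, 32.2 FPKM, and control A2 the lowest descending sum, 65.4 FPKM. About 13 to 34 reads stood behind each descending value. The difference was 1.81 ± 0.16 in mutants (limma, adjusted p = 1.66e-07) and 1.83 ± 0.23 in controls (adjusted p = 4.02e-05), and the ratio of means was 8.06 and 8.41.

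Gcnt1 (ENSMUSG00000038843.17; GRCm38 chromosome 19, 17326141 to 17372844, minus strand), the widely expressed core 2 enzyme, went the other way. Its level was 3.74, 10.5 and 14.7 FPKM (lowest, median, highest) in ascending mutants against 3.39, 16.1 and 30.8 FPKM in descending mutants. In controls it was 8.88, 12.3 and 19.9 FPKM in ascending colon against 10.7, 23.0 and 35.9 FPKM in descending colon. The ranges overlapped. Ascending minus descending was -0.58 ± 0.18 in mutants (limma, adjusted p = 0.0162) and -0.71 ± 0.23 in controls (adjusted p = 0.0276). These calls were less stable than those of Gcnt3 and Gcnt4, which passed under all alternatives run: Gcnt1 passed in 24 of 30 alternatives in mutants and in 18 of 28 in controls (adjusted p from 0.00403 to 0.236, and from 0.000105 to 0.294). In both genotypes the Gcnt1 call was lost with median-of-ratios scaling (limma, adjusted p = 0.0702 in mutants and 0.131 in controls). It was also lost with quantile normalization (0.0682 and 0.0747) and in 1 fit of all libraries (0.124 and 0.0878). In mutants it was lost without the cage term (0.236), cage A (0.166) or cage C (0.122). In controls it was lost without cage B (0.294) or cage C (0.0926). Among single control libraries it was lost without descending control A1 (0.0615), B1 (0.0553) or C1 (0.0592), and without ascending control B2 (0.0568) or B3 (0.0551). Cage B mutants had no such difference, at 0.09, against -0.79 in cage A and -0.81 in cage C.

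Of the 5 members tested between regions in mutants, 2 were called higher in ascending colon, where 14.3% of all 12203 genes tested were, and 1 was called lower, where 29.7% were, out of 44.0% called in all. In controls, 2 of 6 were higher against 12.8% of 12515 genes, and 1 was lower against 25.1%, out of 37.9% called. With so few members these counts say nothing of the group as a whole. C1galt1 differed by -0.07 ± 0.15 in mutants (limma, adjusted p = 0.743) and 0.06 ± 0.13 in controls (0.766). C1galt1c1 differed by 0.54 ± 0.26 in mutants (adjusted p = 0.108) and 0.46 ± 0.26 in controls (0.175). In mutants it passed in 3 of 30 alternatives, with median-of-ratios scaling (adjusted p = 0.0416), without ascending mutant B1 (0.0283) and without that library and descending mutant C1 together (0.0195), and the difference was 0.32 without descending mutant C1. In controls it passed in 1 of 28 alternatives, without cage C (adjusted p = 0.0347), and the difference was 0.27 without descending control A2. B3gnt6 was tested in controls only, where ascending controls B1 and B2 alone brought it past the filter, at 1.24 ± 0.52 (adjusted p = 0.0745). That value passed in 3 of 26 alternatives, with a pseudocount of 0.1 (adjusted p = 0.0255), in 1 fit of all libraries (0.0140) and without ascending control B3 (0.0143), where the difference was 1.61. Without ascending control B2 the difference was 0.82, and the adjusted p over the alternatives reached 0.149.

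Fewer cells of a type and less RNA per cell cannot be told apart in pieces of tissue. Markers of crypt and dividing cells, 8 of 8 in the table, summed to 54.9 to 117 FPKM in ascending mutants and 122 to 228 FPKM in descending mutants, and to 45.5 to 90.9 FPKM in ascending controls and 99.9 to 171 FPKM in descending controls. T cell markers, 7 of 8 in the table, summed to 4.55 to 12.5 FPKM in ascending mutants and 1.39 to 3.67 FPKM in descending mutants, and to 8.20 to 24.3 FPKM in ascending controls and 1.87 to 3.97 FPKM in descending controls. Of the 8 smooth muscle markers, 7 were called lower and 1 higher in ascending colon in mutants, with a median difference of -1.93, and 0 were lower and 1 higher in controls, with a median of -1.49. Their sums overlapped between regions, at 20.3 to 67.4 FPKM in ascending mutants, 41.9 to 285 FPKM in descending mutants, 29.6 to 431 FPKM in ascending controls and 32.7 to 441 FPKM in descending controls. Of the 8 fibroblast and matrix markers, 4 were called lower in ascending colon in mutants and 0 in controls. Absorptive colonocyte markers, 12 of 12 in the table, summed to 12900 to 20880 FPKM in ascending mutants and 2686 to 5159 FPKM in descending mutants. In controls they summed to 7598 to 14190 FPKM in ascending and 2643 to 6062 FPKM in descending colon. Within that list 6 markers were called higher and 5 lower in mutants, and 6 higher and 4 lower in controls. The list shares Car1 and Fabp2 with a list of ascending colon markers, so nothing is read from the separation of its sums by region. Adipocyte markers, 5 of 5 in the table, summed to 8.55 to 29.99 FPKM in ascending mutants and 0.52 to 4.91 FPKM in descending mutants, without overlap, and to 8.03 to 56.0 FPKM in ascending controls and 0.40 to 12.4 FPKM in descending controls, with overlap. Goblet cell markers, 18 of 18 in the table, summed to 1905 to 6520 FPKM in ascending mutants and 2832 to 12590 FPKM in descending mutants. In controls they summed to 1525 to 5855 FPKM in ascending and 1964 to 7289 FPKM in descending colon, with overlap in both genotypes. Of these, 2 were called higher and 5 lower in mutants, and 3 higher and 1 lower in controls. The part of these cell types in the regional differences was not tested.

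**Figure D2:**
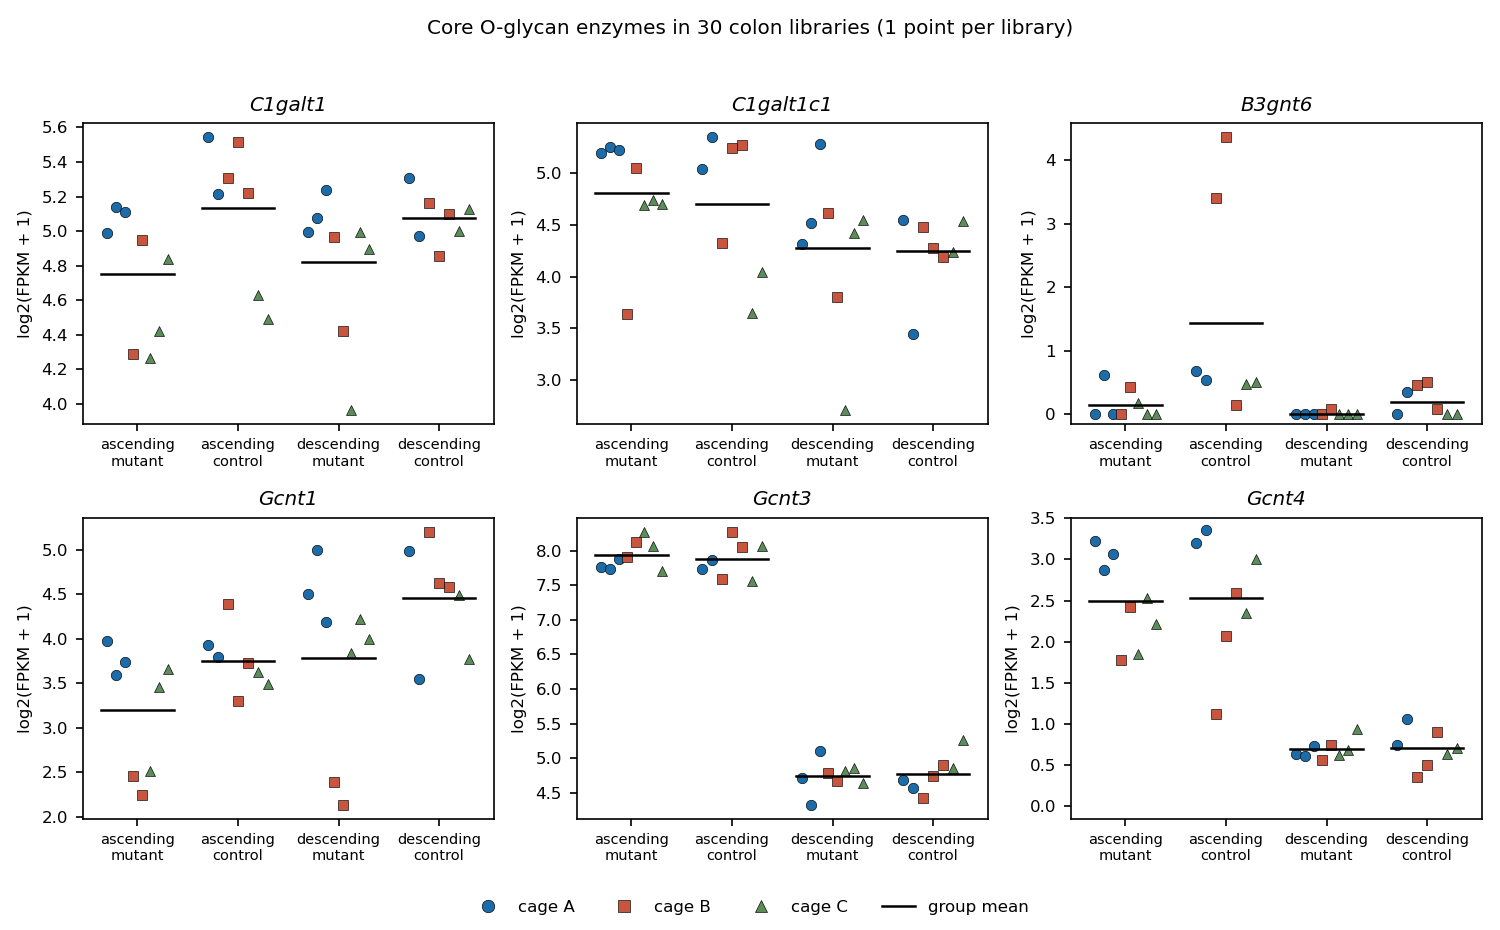
Each point is 1 of the 30 libraries on the log2(FPKM + 1) scale, by region and genotype, with colour and shape for the cage and a black line for the group mean. Gcnt3 and Gcnt4 separate ascending from descending libraries without overlap, and the 4 cage B mutant libraries are the lowest for Gcnt1. The share of all genes that separate the regions was not counted.

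The branching enzymes can be set side by side because FPKM is per length of gene. Their summed level had a median of 250.5 FPKM in ascending mutants, 254 FPKM in ascending controls, 43.6 FPKM in descending mutants and 51.0 FPKM in descending controls. Gcnt3 made up 90.3 to 97.7% of that sum in ascending mutants and 37.8 to 85.8% in descending mutants. Its share was 90.1 to 96.2% in ascending controls and 36.1 to 73.8% in descending controls. The share of Gcnt1 was 1.31 to 6.18% in ascending mutants and 11.8 to 61.1% in descending mutants, and 2.78 to 9.37% in ascending controls and 24.9 to 63.4% in descending controls. Gcnt4 contributed 0.495 to 3.64% over all libraries. RNA for branching was thus nearly all Gcnt3 in ascending colon and a mixture of Gcnt3 and Gcnt1 in descending colon. Descending mutants B1 and B2, where Gcnt3 had 85.1 and 85.8%, stood above the other descending libraries.

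**Figure D3:**
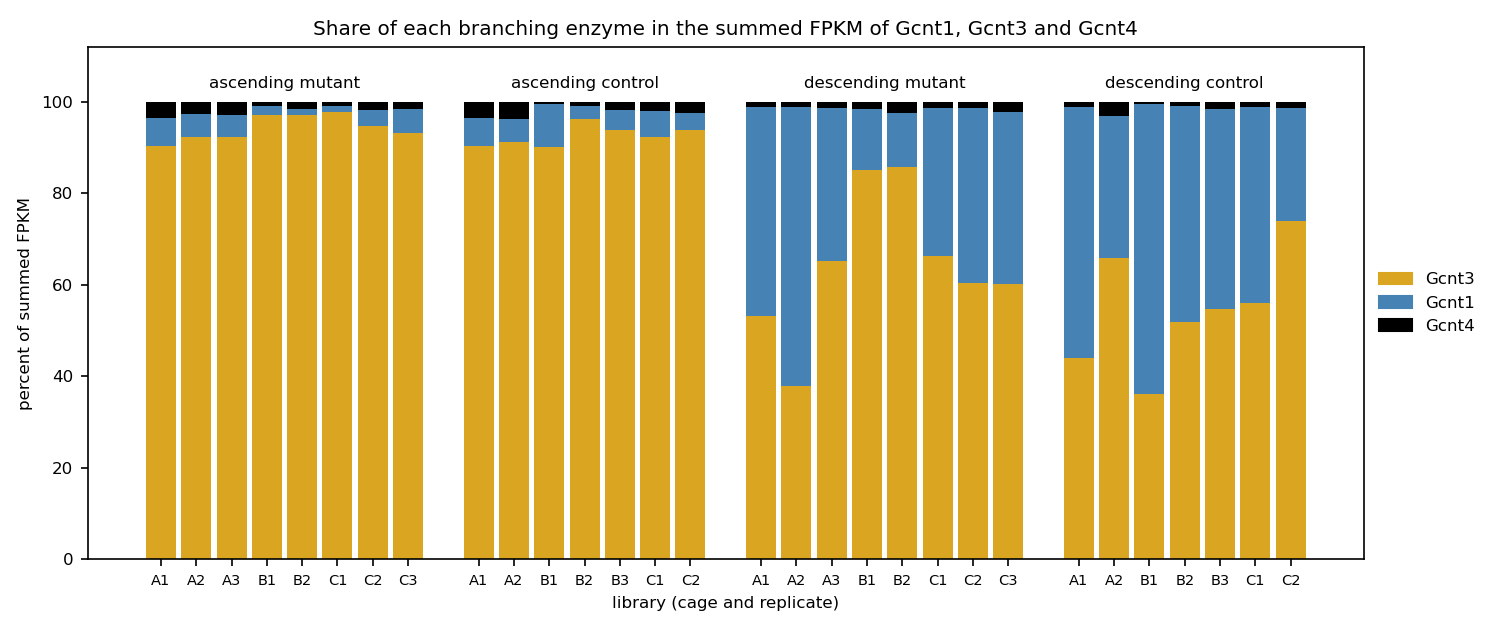
Bars divide the summed FPKM of Gcnt1, Gcnt3 and Gcnt4 in each library into percent per enzyme, with libraries named by cage and replicate. Gcnt3 takes at least 90.1% in every ascending library and at most 85.8% in the descending libraries.

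Genes most like Gcnt3 over the 30 libraries were Abca12, a lipid transporter (Pearson r = 0.985), Hkdc1, a hexokinase (0.98), and Aldh1a1, a retinaldehyde dehydrogenase (0.98). Abca12 was at 16.7 to 38.0 FPKM in ascending libraries and 0 to 1.10 FPKM in descending ones. Within regions its r with Gcnt3 was 0.422 over ascending and -0.206 over descending libraries, so the likeness came from the step between regions. For Gcnt4 the genes were Cyp3a44 (0.971), Defb37, a defensin (0.969), and Lrat, which esterifies retinol (0.963). Cyp3a44 kept an r of 0.882 over the ascending libraries and was near 0 in the descending ones, at up to 0.16 FPKM. In ascending mutants of cages A, B and C it had 19.7 to 28.8, 1.31 to 11.4 and 7.81 to 18.7 FPKM. Gcnt4 had 6.32 to 8.34, 2.44 to 4.37 and 2.62 to 4.78 FPKM there. In ascending controls of these cages Cyp3a44 had 17.5 to 34.5, 0.7 to 13.4 and 8.53 to 22.2 FPKM. Gcnt4 had 8.19 to 9.24, 1.18 to 5.02 and 4.11 to 7.05 FPKM. The part of cage in this r was not tested.

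Mutants and controls were then compared for the branching enzymes. Gcnt3 differed by 0.08 ± 0.13 in ascending colon (limma, adjusted p = 0.829) and -0.05 ± 0.13 in descending colon (adjusted p = 0.999), and Gcnt4 by -0.18 ± 0.21 (0.755) and -0.03 ± 0.12 (0.999). Gcnt1 was at 9.08 ± 4.18 FPKM in ascending mutants (SD, n = 8) and 12.8 ± 3.58 FPKM in ascending controls (n = 7), and at 15.4 ± 8.95 FPKM in descending mutants and 22.6 ± 8.98 FPKM in descending controls. The log2 difference of Gcnt1 was -0.63 ± 0.23 (adjusted p = 0.345) in ascending and -0.79 ± 0.38 (0.999) in descending colon. Leaving out single libraries gave -0.73 to -0.49 in ascending colon and -1.11 (without control A2) to -0.51 (without mutant B2) in descending colon.

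No member was called between mutants and controls, 0 of 6 in ascending colon and 0 of 5 in descending colon, where 0% of 12178 and 0% of 12219 genes were called by limma. At an unadjusted p under 0.05 there were 1396 of 12178 genes in ascending colon, among them 3 of 6 members (C1galt1, B3gnt6 and Gcnt1). In descending colon there were 267 of 12219 genes and 0 of 5 members. With so few members nothing is read from these counts. B3gnt6 was in the ascending fit only through ascending controls B1 and B2. The number of ascending calls depended on the libraries and weights, with 170 without ascending mutant B1, 652 without cage B and 746 with array quality weights, but no member passed in any of the up to 29 alternatives run for it in a region. Beside these differences, the 8 fibroblast and matrix markers summed to 13.1 to 58.5 FPKM in ascending mutants and 49.6 to 138 FPKM in ascending controls, and to 16.6 to 102 FPKM in descending mutants and 23.6 to 163 FPKM in descending controls. The 8 macrophage markers summed to 5.58 to 71.9 FPKM in ascending mutants and 18.0 to 194 FPKM in ascending controls. The 6 ascending colon markers summed to 8229 to 14160 FPKM in ascending mutants and 3843 to 8046 FPKM in ascending controls. In descending colon these sums overlapped, at 566 to 2204 FPKM in mutants and 394 to 2785 FPKM in controls. Smooth muscle markers had a median difference of -1.12 in ascending and -0.674 in descending colon, with 0 called. The part of all these markers in the genotype differences was not tested.

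In the fit of all libraries B3gnt6 passed the filter only through ascending controls B1 and B2. The difference between the regional genotype effects was called for 0 of 6 members and 0% of 12353 genes, with 206 genes at an unadjusted p under 0.05. That difference was -0.12 ± 0.21 for C1galt1, 0.08 ± 0.39 for C1galt1c1, -1.10 ± 0.54 for B3gnt6, 0.13 ± 0.45 for Gcnt1, 0.09 ± 0.18 for Gcnt3 and -0.02 ± 0.28 for Gcnt4 (ascending minus descending effect, adjusted p = 1 for each).

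**Figure D4:**
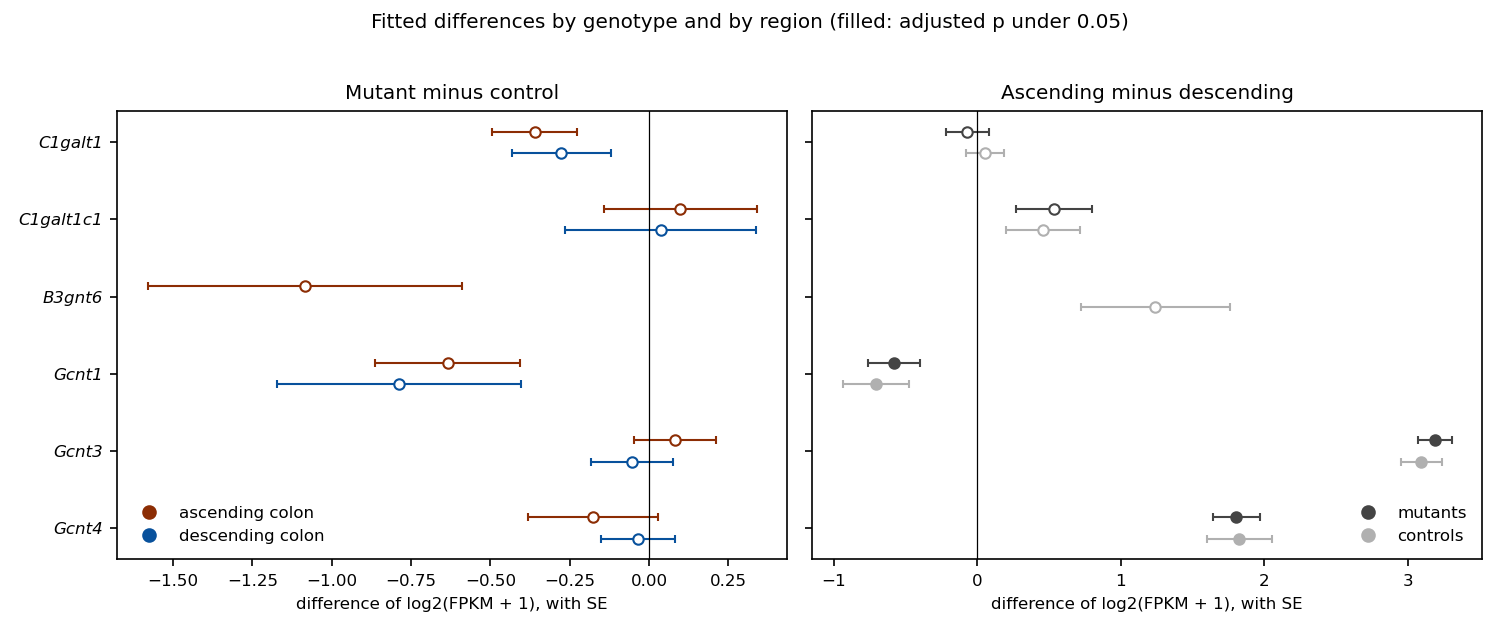
Points are fitted differences of log2(FPKM + 1) with their SE, mutant minus control on the left for each region and ascending minus descending on the right for mutants and controls. Filled points, which passed an adjusted p of 0.05, are Gcnt1, Gcnt3 and Gcnt4 between regions, and no member between genotypes; B3gnt6 is missing where it was not fitted.

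Gcnt1 carried a pattern within 1 cage. In cage B the 2 ascending mutants had 4.5 and 3.74 FPKM, against 19.9, 8.88 and 12.3 FPKM in the 3 ascending controls. The 2 descending mutants of cage B had 4.23 and 3.39 FPKM, against 35.9, 23.7 and 23.0 FPKM in the 3 descending controls. The genotypes did not overlap there, a weak criterion with 2 and 3 libraries, and the log2 differences were -1.46 and -2.55. In cage A the differences were -0.10 in ascending and 0.29 in descending colon, and in cage C they were -0.35 and -0.11, with overlap in each. Without cage B the descending difference of Gcnt1 was 0.09 and the ascending one -0.22.

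The genotype by cage term of Gcnt1 did not pass in ascending colon (limma F test, adjusted p = 0.446) or descending colon (adjusted p = 0.879). No member passed, 0 of 6 against 0% of genes in ascending and 0 of 5 against 0.00818% in descending colon. At an unadjusted p under 0.05 the F test took 1264 of 12178 genes in ascending and 540 of 12219 in descending colon. Gcnt1 was among them in both regions (limma, unadjusted p = 0.0237 ascending and 0.000275 descending), and C1galt1c1 in ascending colon (unadjusted p = 0.0312). Gcnt1 was the 1 gene of 14475, or 0.00691%, whose 4 cage B mutant values all lay below those of every other library. The margin was small, 4.5 FPKM against 4.73 FPKM in ascending mutant C1, and the pattern was looked for after it had been seen. How many genes would do so by chance was not worked out, so nothing is read from that count. Epithelial markers in these libraries summed to 5977 and 7432 FPKM in ascending and 8045 and 7301 FPKM in descending mutants B1 and B2, within the range of the other libraries.

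The genes most like Gcnt1 over the 30 libraries were Adgrg7, an adhesion receptor (Pearson r = 0.692), Sfxn3, a mitochondrial carrier (0.674), and Carnmt1, which methylates carnosine (0.671). Carnmt1 lies on the same chromosome, 1.30 Mb away at 18670764 to 18707200. It had 1.35 and 1.27 FPKM in ascending and 1.01 and 1.77 FPKM in descending mutants of cage B, against 3.09 to 4.51 FPKM in ascending and 3.28 to 4.91 FPKM in descending controls of cage B. Ascending mutant C1 and control C2, at 1.34 and 1.5 FPKM, were as low. In cage B, Adgrg7 overlapped between the genotypes in ascending colon, at 87.8 to 159 FPKM in mutants and 134 to 191 FPKM in controls, and did not overlap in descending colon, at 105 to 162 FPKM in mutants and 174 to 207 FPKM in controls. Sfxn3 overlapped in both regions of cage B, at 7.27 to 9.20 FPKM in mutants and 7.05 to 16.3 FPKM in controls of the ascending colon, and 7.13 to 21.1 FPKM in mutants and 8.89 to 27.4 FPKM in controls of the descending colon.

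**Figure D5:**
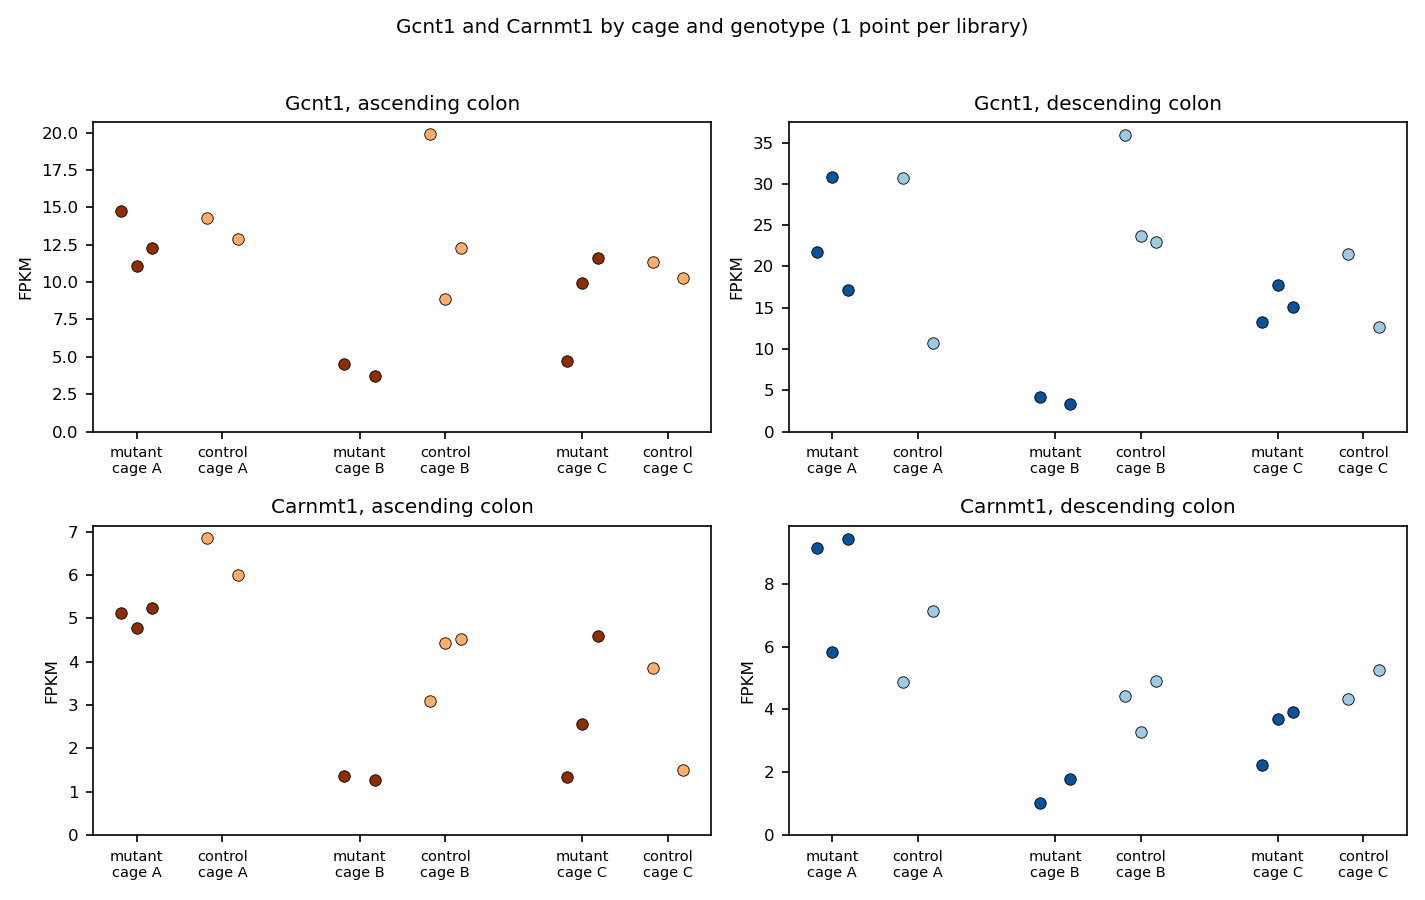
Points give the FPKM of Gcnt1 and Carnmt1 in each library, with mutants left of controls within cages A, B and C and a panel for each region. The cage B mutants had 3.39 to 4.5 FPKM of Gcnt1, below all controls in both regions.

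Across cages, regions and genotypes together, 0 of 6 members passed the test for cage, where 4.92% of 12353 genes were called. C1galt1 and Gcnt4 lay just outside, with adjusted p of 0.0502 and 0.0515 (limma F test). C1galt1 averaged 35.0 ± 4.66, 31.5 ± 7.96 and 25.1 ± 6.33 FPKM in cages A, B and C (SD, n = 10 each). Gcnt4 stood lower in cage B by -0.66 and in cage C by -0.40 relative to cage A on the log2 scale. The adjusted p was 0.199 for Gcnt1, 0.266 for C1galt1c1, 0.313 for B3gnt6 and 0.510 for Gcnt3.

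The rest of the pathway was described by 7 lists, and no gene of any was called between mutants and controls in either region. The smallest p-values of 6 of the lists belonged in ascending colon to Galnt6 (0.20 ± 0.13), St6galnac4 (-0.42 ± 0.14), B4galt5 (-0.28 ± 0.15), Gcnt2 (-0.31 ± 0.15), B4galnt2 (0.37 ± 0.17) and Muc1 (-0.80 ± 0.25). In descending colon those of all 7 lists belonged to Galnt6 (0.17 ± 0.10), St3gal1 (-0.67 ± 0.43), B4galt1 (0.21 ± 0.25), Gcnt2 (-0.39 ± 0.20), Gal3st1 (0.16 ± 0.10), Uap1 (-0.21 ± 0.10) and Muc16 (-0.48 ± 0.65). These are mutant minus control differences on the log2 scale, with SE.

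Between regions, the counts of these lists are set against 14.3% of all genes called higher and 29.7% called lower in ascending colon in mutants, and 12.8% and 25.1% in controls, and against the median differences over all genes of -0.16 in mutants and -0.14 in controls. The lists are small, and nothing is read from a count near those shares. Of 12 GalNAc transferases tested in mutants, 4 were higher and 2 lower in ascending colon, and in controls 3 were higher and 2 lower. The median difference was 0.14 in both genotypes. Galnt12 was higher by 1.33 ± 0.12 in mutants and 1.33 ± 0.18 in controls, and Galnt17 was lower by a difference of -1.25 ± 0.19 and -1.11 ± 0.16. Galnt18, called among the 3 foremost in mutants, had -1.26 ± 0.14, and Galnt10 had 0.70 ± 0.14 in controls. Of 7 enzymes that sialylate GalNAc or core 1, 1 was higher and 3 were lower in mutants, and 1 and 2 in controls, with medians of -0.24 and -0.16. St3gal1, which caps core 1, was higher in ascending colon, by 2.77 ± 0.25 in mutants and 2.34 ± 0.53 in controls. St6galnac4, which sialylates the GalNAc of sialyl core 1, had -2.55 ± 0.13 and -2.20 ± 0.19, and St6galnac6 had -0.56 ± 0.11 and -0.58 ± 0.14.

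Of 10 enzymes that lengthen cores, 5 were called lower in ascending colon in mutants (29.7% over all genes) and 4 in controls (25.1%), and 0 were called higher in either (14.3% and 12.8%). Their medians were -0.45 in mutants and -0.27 in controls, against -0.16 and -0.14 over all genes. B3gnt7, which extends polylactosamine chains, had -5.76 ± 0.23 in mutants and -5.72 ± 0.31 in controls. B3gnt5, which starts lacto-series glycolipids, had -4.43 ± 0.16 and -3.90 ± 0.25, and B4galt1, a galactosyltransferase, -1.21 ± 0.15 and -1.04 ± 0.22. Of another list 2 genes were tested, Gcnt2 of the GCNT family and A4gnt, which adds the terminal alpha-linked N-acetylglucosamine of gland mucin. A4gnt was higher in ascending colon by 2.001 ± 0.24 in mutants and 1.77 ± 0.33 in controls. Gcnt2, the enzyme of I branches, was not called, at 0.09 ± 0.19 and 0.08 ± 0.22. The medians of this pair were 1.04 in mutants and 0.93 in controls.

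Of 12 capping enzymes, 4 were called higher (14.3% over all genes) and 4 lower (29.7%) in mutants, and 3 higher (12.8%) and 3 lower (25.1%) in controls, with medians of -0.39 and -0.08. B4galnt2, which makes the Sda antigen, was higher in ascending colon by 3.01 ± 0.21 in mutants and 2.61 ± 0.27 in controls. B4galnt3 had -2.35 ± 0.12 and -2.22 ± 0.20, and the sialyltransferase St3gal6 had -3.45 ± 0.12 and -2.97 ± 0.27. Of 19 genes that supply nucleotide sugars, 4 were higher and 6 lower in mutants and 3 and 6 in controls, with medians of -0.22 and -0.04. Nans and Gne, enzymes of sialic acid synthesis, had -1.74 ± 0.16 and -1.07 ± 0.12 in mutants and -1.62 ± 0.16 and -0.89 ± 0.10 in controls. Slc35d2, a transporter of nucleotide sugars, had 0.99 ± 0.12 in mutants, and Slc35a3, the UDP-N-acetylglucosamine transporter, had -0.86 ± 0.10 in controls.

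Of 6 mucins tested, 1 was higher and 2 were lower in mutants and 1 and 1 in controls, with medians of 0.07 and 0.36. Muc2, the main secreted mucin of the colon, was higher in ascending colon by 2.79 ± 0.26 in mutants and 2.74 ± 0.36 in controls. Muc1 had -2.14 ± 0.21 and -1.33 ± 0.28, and Muc13 had -0.59 ± 0.19 in mutants. The regional differences of mutants and of controls do not share libraries, and each was fitted by itself.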

How the data were processed

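Per the labels' protocols, ribosomal RNA was removed from total RNA and Kapa Hyper Prep libraries were sequenced as single 50 nt reads. The authors deposited 1 table of FPKM for 14475 genes in 30 libraries. The submitters' processing notes name bcl2fastq 2.17, STAR, DESeq2 and the GRCm38 (mm10) genome; of gene lengths and counting, nothing is stated in those sources. Libraries were grouped by region, genotype and cage from the labels. On log2(FPKM + 1), and among genes that averaged 0.5 FPKM or more, limma 3.58.1 in R 4.3.3 (lmFit, then eBayes with trend) was run for each comparison with cage as covariate. All limma p-values are two-sided and Benjamini-Hochberg adjusted over the genes of that fit, with 0.05 as threshold. Depth was estimated from the steps between low FPKM values and GENCODE M21 exon lengths, and entered no test; 72.9 to 84.3% of low values lay within 0.2 of a step. Members and lists were chosen with earlier results of these data known. All members were named; of each list, up to 3 called genes per comparison with the smallest adjusted p, or else the 1 with the smallest p; and the 3 genes most correlated with each member, leaving out predicted genes and immune receptor segments. Values of 2 genes that this rule or the neighbourhood of a member would name are not reported here. The fits were tested on simulated data. Alternatives were another pseudocount, other filters and scalings, robust moderation, array weights, leaving out libraries or cages, no cage term, a fit of all libraries together and a replicate block.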

Additional observations from a re-analysis of the deposited data

Results flagged for a closer look

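Each member was examined in each of the 4 groups, 24 sets of values in all, for a library farther from the others than Dixon's test allows at the 95% level. Chance alone flags about 1 in 20 such sets. C1galt1c1 had 11.46 FPKM in ascending mutant B1, with the other ascending mutants at 24.8 FPKM or more. C1galt1c1 also had 9.89 FPKM in descending control A2, with the other descending controls at 17.3 FPKM or more. That library was also lowest of all for the summed epithelial markers, and ascending mutant B1 was the lowest ascending mutant, at 5977 FPKM. Goblet cell markers summed to 1964 FPKM in descending control A2, the lowest descending control, and to 2467 FPKM in ascending mutant B1. Ascending mutants ran from 1905 to 6520 FPKM for these, the lowest being C2, where C1galt1c1 had 25.8 FPKM. The part of goblet cells in these values was not tested. B3gnt6 had 0.06 FPKM in descending mutant B2, about 1 read, with the other descending mutants listed at 0.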

How the results depend on the processing

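Gcnt3 and Gcnt4 passed between regions, in the same direction, under all 28 alternatives in controls and all 30 in mutants, with Gcnt3 at 2.96 to 3.26 and 3.14 to 3.35 and Gcnt4 at 1.61 to 2.74 and 1.45 to 2.72. No member was called between genotypes, or in the interaction, under any alternative run. The number of genes called between genotypes in ascending colon was 0, and it became 746 with array quality weights, 652 without cage B, 3 in 1 fit of all 30 libraries, 1 without ascending controls B1 and B2 together (chosen after seeing the data) and 0 to 170 with single libraries left out; in descending colon it became 1 with array quality weights. Between regions 4744 genes were called in controls, with 2069 without cage B and 2567 without cage C, and 5368 in mutants, with 3528 without cage C. The test for cage took 608 genes, and 364 to 1365 with single libraries left out. The genotype by cage test took 0 genes in ascending colon, 1 with a pseudocount of 0.1 and 0 to 381 with single libraries left out, and 1 gene in descending colon, with 1 to 132 when single libraries were left out. The cause of these changes was not tested.

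Signs that turned belonged to differences that were not called. Mutant minus control in ascending colon turned for Gcnt3 to -0.0088 with quantile normalization and for C1galt1c1 to -0.29 without cage C, with -0.058 to 0.37 when single libraries were left out. In descending colon it turned for Gcnt4 to 0.053 with quantile normalization, 0.071 without cage A and 0.051 without descending control A2 and mutant C1 together, with -0.075 to 0.033 over single libraries; for C1galt1c1 to -0.30 without cage A, with -0.19 to 0.24 over single libraries; for Gcnt1 to 0.091 without cage B; and for Gcnt3 to 0.067 without cage C, with -0.12 to 0.031 over single libraries. The interaction turned for C1galt1c1 to -0.041 with array quality weights and -0.49 without cage C (-0.12 to 0.28 over single libraries), for C1galt1 to 0.065 and Gcnt1 to -0.32 without cage B (Gcnt1 -0.069 to 0.38 over single libraries), and for Gcnt3 to -0.077 and Gcnt4 to 0.26 without cage C (Gcnt4 -0.22 to 0.066 over single libraries). Ascending minus descending turned for C1galt1 in controls to -0.016 without cage A, -0.13 without cage B, -0.00088 to 0.13 over single libraries and -0.13 without descending control A2 and ascending controls B1 and B2 together, and in mutants to 0.087 with median-of-ratios scaling.

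Numbers in the titles were not shown to pair libraries: over 15 pairs of regions with the same number the correlation of deviations was -0.31 to 0.12, with 2 above 0.1 and 0 libraries closest to their own number, and over 12 pairs of genotypes it was -0.41 to 0.40, with 4 above 0.1 and 2 closest. With a replicate block from these numbers, 0 genes were called between genotypes in either region, 4236 between regions in controls and 5219 in mutants, and the C1galt1c1 difference in descending colon was -0.19. Where a fit left out a library, single libraries of a cage and group were taken to vary like the rest. Read numbers limit B3gnt6, which had 0 to 9 reads outside ascending controls B1 and B2, and Gcnt4 in descending colon.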

Other observations

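The neighbourhood of the 5 autosomal members was read within 500 kb. Between mutants and controls, 0 of 5 neighbours of C1galt1, 0 of 8 of B3gnt6, 0 of 2 of Gcnt1, 0 of 5 of Gcnt3 and 0 of 7 of Gcnt4 passed in ascending colon (limma, Benjamini-Hochberg adjusted), with 0, 0, 1, 1 and 3 at an unadjusted p under 0.05. In descending colon 0 of 5, 9, 3, 5 and 7 passed, with 0, 0, 0, 1 and 0 at an unadjusted p under 0.05. Over all genes 1396 of 12178 were under that value in ascending and 267 of 12219 in descending colon. Enc1, a neighbour of Gcnt4, had a mutant minus control log2 difference of -0.41 ± 0.14 in ascending colon (adjusted p = 0.323). Ccnb2, a cyclin of mitosis whose gene lies 370 kb from Gcnt3, had 0.62 ± 0.18 in ascending colon (0.273) and 0.52 ± 0.15 in descending colon (0.999). Bnip2, nearer to Gcnt3, had -0.28 ± 0.15 (0.473) and -0.21 ± 0.22 (0.999). Rfk, next to Gcnt1, had 0.25 ± 0.12 in ascending colon (0.431).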
